A study of Mus musculus with 6 samples.

Results

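Mt1, Mt2 and Slc30a1 are 3 of the 345 genes in the table of normalized counts from RAW264.7 cells, a mouse macrophage line. They are the rows with these gene names. The table holds only genes that passed the authors' own test on these libraries. The 3 genes were chosen with earlier results of these data known. RAW264.7 cells without extract form the Control group (3 libraries). The G scaffold group (3 libraries, labelled Zn) is kept in a 5-fold diluted extract of a gyroid scaffold of the alloy Zn-0.8Li. Extract cultures for other assays of the study lasted 48 h, and the time for the sequenced cells is not given separately. The comparison asks how the cells' transcripts respond to what the scaffold releases. The extract brings Zn and Li together, and their parts in a response cannot be told apart here. Both groups are the same line, and the label field for genotype holds only the group names. It is not stated whether the 3 samples of a group are separate cultures, so the spread between these samples may be technical. The limma p-values rest on this spread and also on that of the other listed genes.

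Metallothioneins are small proteins rich in cysteine whose thiol groups bind zinc and copper, and they buffer free zinc in the cytosol. Slc30a1 encodes ZnT1, the zinc transporter of the plasma membrane that moves zinc out of the cell. All 3 genes are textbook targets of MTF1, a zinc finger transcription factor that is activated by zinc and binds short metal response elements in promoters. In macrophages, as in other cells, this machinery keeps free zinc low, and metallothionein transcripts are a common readout of zinc exposure.

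In the table, Mt2 (MGP_SPRETEiJ_G0032512) lies on chromosome 8 from 93357658 to 93358607, and Mt1 (MGP_SPRETEiJ_G0032513) from 93363766 to 93365003 on the same plus strand. The 2 genes are 5158 bases apart with no other listed gene between them. Slc30a1 (MGP_SPRETEiJ_G0015856) lies on chromosome 1 from 195366456 to 195372911, also on the plus strand. These positions are in the annotation of SPRET/EiJ, a Mus spretus strain, which supplies 329 of the 345 identifiers. The submitters' processing notes name GRCm38 and mm10 instead, so sequences below carry GRCm38 positions of their own. All 3 genes are protein coding.

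The coding sequences of the 2 metallothionein transcripts are shown to make visible how alike the genes are and where their zinc-binding residues are encoded. They come from the GENCODE M21 annotation (GRCm38, plus strand), and capitals mark the codons of cysteine. Mt1 is read from 3 exons within chr8:94179311-94180193 and Mt2 from 3 exons within chr8:94172848-94173427.
Mt1: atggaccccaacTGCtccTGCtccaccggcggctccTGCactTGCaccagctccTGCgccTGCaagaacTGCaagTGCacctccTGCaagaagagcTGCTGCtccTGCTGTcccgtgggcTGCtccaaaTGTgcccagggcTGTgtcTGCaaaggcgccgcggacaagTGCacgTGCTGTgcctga
Mt2: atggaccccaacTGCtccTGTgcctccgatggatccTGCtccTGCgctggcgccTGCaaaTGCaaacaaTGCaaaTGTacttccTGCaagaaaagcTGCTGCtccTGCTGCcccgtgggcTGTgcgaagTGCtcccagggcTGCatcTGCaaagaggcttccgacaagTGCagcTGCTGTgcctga
Each has 186 bases with the stop codon, and 20 of the 61 amino acid codons (32.8%) encode cysteine in both genes. By contrast, the Slc30a1 coding sequence has 503 amino acid codons, of which 18 (3.58%) encode cysteine and 21 histidine, another residue that can bind zinc. The 2 metallothionein coding sequences are identical at 148 of 186 bases (79.6%). The longest run of bases that the 2 whole transcripts share is 20. The read length and the handling of reads with several matches are not given in the sources used here, so whether reads were split between Mt1 and Mt2 was not tested.

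The promoter windows are shown because the members are known targets of one factor. They run from 250 bases before to 50 bases after the RefSeq gene start (GRCm38.p6, plus strand). Capitals mark matches on either strand to TGCACNC or TGCGCNC, the core letters of the metal response element, and no match overlaps another. The windows are chr8:94178839-94179138 for Mt1, chr8:94172368-94172667 for Mt2 and chr1:191906531-191906830 for Slc30a1.
Mt1: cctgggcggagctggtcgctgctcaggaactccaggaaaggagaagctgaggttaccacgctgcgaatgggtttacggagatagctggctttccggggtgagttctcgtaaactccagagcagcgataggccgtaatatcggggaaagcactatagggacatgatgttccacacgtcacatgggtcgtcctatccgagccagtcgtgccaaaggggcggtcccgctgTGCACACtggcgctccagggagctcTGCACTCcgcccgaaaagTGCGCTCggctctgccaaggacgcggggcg
Mt2: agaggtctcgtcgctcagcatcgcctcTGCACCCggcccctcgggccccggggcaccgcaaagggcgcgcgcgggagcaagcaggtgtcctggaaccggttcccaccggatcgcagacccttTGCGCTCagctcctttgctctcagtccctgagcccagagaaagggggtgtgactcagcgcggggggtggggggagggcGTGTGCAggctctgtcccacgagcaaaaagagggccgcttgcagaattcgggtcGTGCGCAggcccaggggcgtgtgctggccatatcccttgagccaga
Slc30a1: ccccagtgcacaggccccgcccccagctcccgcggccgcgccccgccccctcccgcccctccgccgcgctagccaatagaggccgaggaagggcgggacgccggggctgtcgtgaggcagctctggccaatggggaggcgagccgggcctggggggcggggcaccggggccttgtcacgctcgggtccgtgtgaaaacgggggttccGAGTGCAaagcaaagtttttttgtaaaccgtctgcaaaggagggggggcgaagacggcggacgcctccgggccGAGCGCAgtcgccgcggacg
Mt1 has 3 matches, all on the plus strand, of which 1 starts 23 bases before the gene start and the other 2 lie after it. Mt2 has 4 matches, 2 on each strand, and the farthest starts 223 bases before the gene start. Slc30a1 has 2 matches, both on the minus strand, and the upstream one covers positions -43 to -37. Over 32851 windows of the same length in the RefSeq table, 7.11% hold 2 or more matches, 1.97% hold 3 or more and 0.517% hold 4 or more. Of the listed genes, 223 have at least 1 window in that table, 293 windows in all, and 30.0% of these windows hold a match against 25.7% of all windows. At 2 or more matches, the number that each of the 3 genes reaches, the shares are 6.83% and 7.11%. They are 2.73% and 1.97% at 3 or more matches, and 0.683% and 0.517% at 4 or more. Apart from the 3 genes, 6 windows of listed genes hold 3 or more matches, and that of Tmem179 holds 4. The RefSeq start of Mt2 is position 94172618 and the GENCODE start is 94172664. These starts are 94179089 and 94179082 for Mt1, and 191906781 and 191906767 for Slc30a1, so distances depend on the annotation. No window reaches the coding sequence of its gene, which begins at 94179311 in Mt1, and the bases between were not searched. A match says only that these letters are present.

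**Figure D1:**
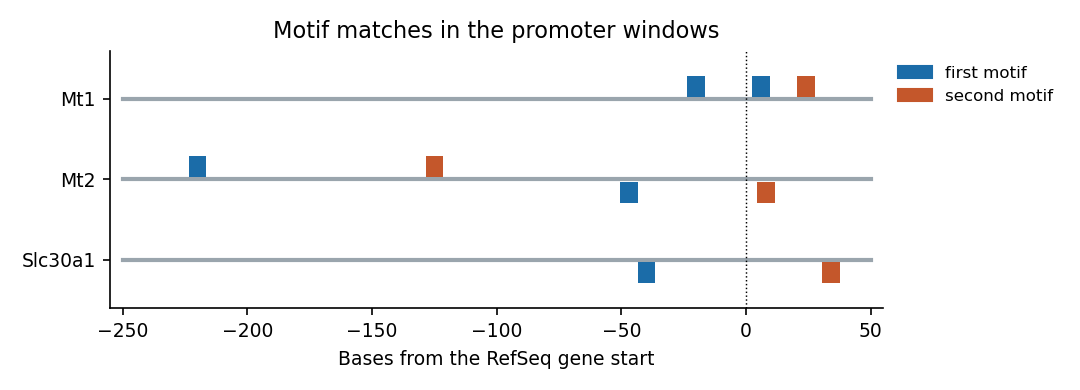
Motif matches in the 3 promoter windows, with the distance from the RefSeq gene start in bases on the x axis (dotted line at the start). Bars above a line are matches on the plus strand and bars below it on the minus strand, in blue for the first motif, TGCACNC, and orange for the second, TGCGCNC. Mt1 has 3 matches, Mt2 has 4 and Slc30a1 has 2.

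Each value is a number of reads for a gene, scaled by the authors with 1 size factor per library, and is called a normalized count here. The size factors lie between 0.924 and 1.05, and 100% of the values are whole reads after multiplying back (within 0.001 of a read). Control libraries hold 88836 to 100895 reads over the listed genes, and G scaffold libraries 150056 to 156029. Total sequencing depth is not analysed here. The table lists genes that had passed the authors' own test on the same 6 libraries, so a second test of the same contrast is not independent evidence. Of 10 macrophage marker genes, Mpeg1 and Cd33 are listed, both lower in the G scaffold group, and the other 8 are not analysed here. Of 14 markers of other cell types only Col1a1 is listed, with 0 reads in each Control library and 5 to 9 in the G scaffold libraries. Its part in the results below was not tested.

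Both metallothionein genes are much higher in cells kept in the extract. Mt1, the more abundant of the 2, reaches 2625, 3056 and 3688 normalized counts in replicates 1, 2 and 3 of Control. It has 28474, 24554 and 26794 in the G scaffold replicates. The lowest G scaffold library is 6.66 times the highest Control library, so the groups do not overlap. The means are 3123 ± 535 and 26608 ± 1967 (SD, n = 3 in each group). The log2 fold change of Mt1 is 3.10 with a standard error of 0.170 (limma, adjusted p = 1.4e-05 by Benjamini-Hochberg over 345 genes).

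Mt2, the second main metallothionein outside the nervous system, starts lower and changes more. It has 944, 1057 and 1137 normalized counts in the Control replicates. The G scaffold replicates have 17584, 15128 and 16429. Every G scaffold library is at least 13.3 times the highest Control library. The means are 1046 ± 97.0 and 16380.0 ± 1229 (SD, n = 3 in each group), a 15.7-fold difference. The log2 fold change of Mt2 is 3.97 with a standard error of 0.140 (adjusted p = 3.7e-06, limma).

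Slc30a1, the zinc exporter gene, changes far less. It has 322, 350 and 356 normalized counts in the Control replicates. In the G scaffold replicates it has 697, 759 and 748. The groups do not overlap, and the lowest G scaffold library is 1.95 times the highest Control library. The means are 343 ± 18.2 and 735 ± 33.4 (SD, n = 3 in each group), a 2.14-fold difference. The log2 fold change of Slc30a1 is 1.10 with a standard error of 0.124 (adjusted p = 2.4e-04, limma), close to the call threshold of 1. It turns to -0.38 with TMM factors computed on the listed genes. Of these genes 82.6% are called higher, and the factors move their median log2 fold change by -1.39. In bulk RNA, more transcripts per cell and more cells with a high level cannot be told apart for any of the 3 genes.

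**Figure D2:**
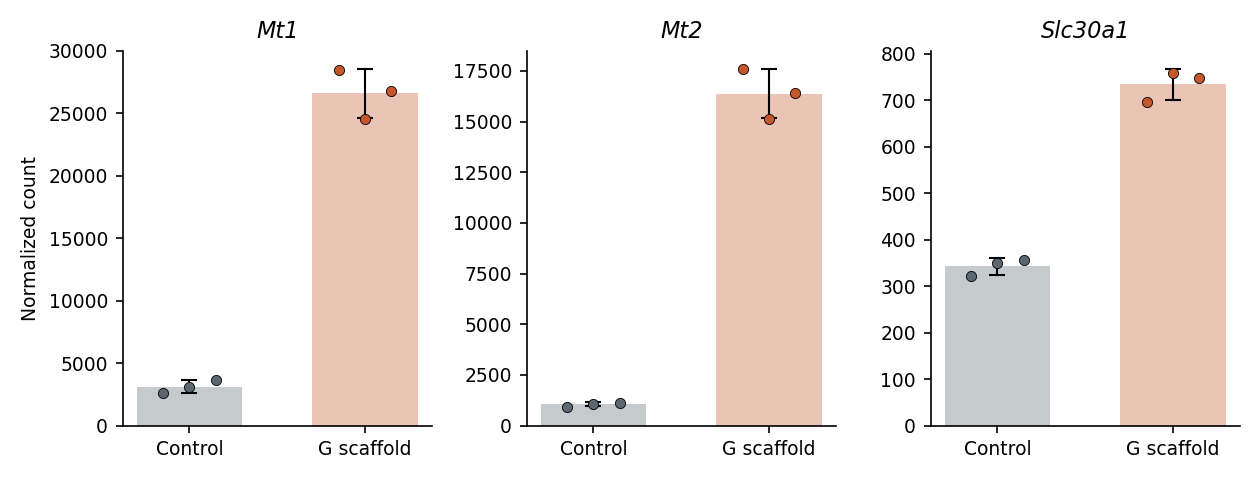
Normalized counts of Mt1, Mt2 and Slc30a1 (y axis, a scale of its own in each panel, starting at 0) in the 3 Control and 3 G scaffold libraries. Points are libraries in replicate order, bars are group means and error bars are the SD. In each gene the 3 G scaffold libraries lie above the 3 Control libraries in the deposited scaling. The direction of Slc30a1 turns with TMM factors (log2 fold change -0.38), which move the median log2 fold change of the listed genes by -1.39.

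A gene is called where limma gives an adjusted p no larger than 0.05 together with a log2 fold change of 1 or more in size. All 3 genes are called higher in the deposited scaling, as are 82.6% of the 345 listed genes. A further 15.9% are called lower, so that 98.6% are called in either direction. In 82.9% every G scaffold library lies above every Control library, and in 99.7% the groups do not overlap. Because the table consists of called genes, the call itself says nothing particular about the 3. The sizes differ within the table. Only 9.86% of the listed genes have a larger log2 fold change than Mt2, and 17.4% have a larger one than Mt1. For Slc30a1 this share is 78.6%. The median over the 345 genes is 1.87, and it lies between Mt1 and Slc30a1. The authors' own test also had a limit on the size of the change, so smaller changes are missing from the table. The shares and the median therefore hold for the listed genes only. A gene near that limit, such as Slc30a1, can only rank low among the higher genes. Its place among all genes of these cells was not tested.

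**Figure D3:**
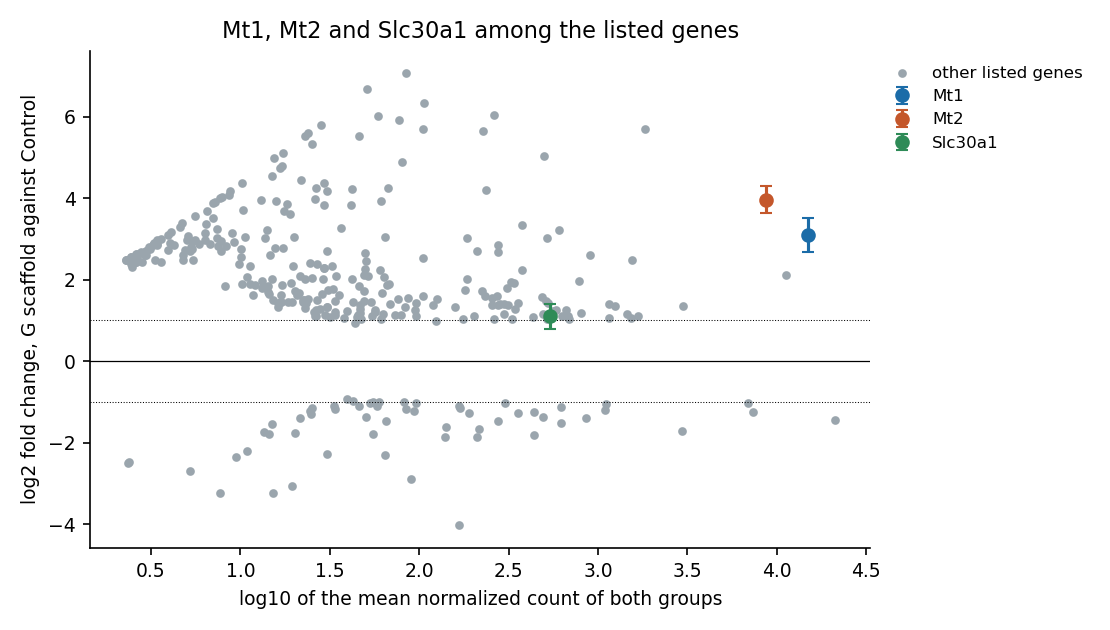
Log2 fold change of each listed gene in G scaffold against Control (y axis) by the log10 of its mean normalized count over both groups (x axis). Grey points are the other listed genes, coloured points are Mt1, Mt2 and Slc30a1 with 95% confidence intervals from limma, and dotted lines mark a log2 fold change of 1 and -1. Mt1 and Mt2 combine a high level with log2 fold changes of 3.10 and 3.97. Slc30a1, at 1.10, lies near the lower edge of the genes with higher values. The authors' own |log2 fold change| limit of 1 sets this edge. Slc30a1 has -0.38 with TMM factors, which move the median of the listed genes by -1.39.

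The metallothioneins account for the largest gains in normalized counts. Mt1 gains 23485 and Mt2 gains 15334 normalized counts between the group means, the largest and second largest gains of the 345 genes. Together these gains make up 40.5% of the summed gain of the 287 genes with a higher mean. Slc30a1 gains 392 normalized counts, or 0.409% of that sum. Of the reads over the listed genes, Mt1 and Mt2 together take 4.35% ± 0.623 in Control libraries and 28.7% ± 1.45 in G scaffold libraries (SD, n = 3 in each group). The 3 Control libraries lie between 3.77% and 5.01%, and the 3 G scaffold libraries between 27.4% and 30.2%.

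Per kb of gene length, which allows genes to be compared, Mt1 is already among the highest listed genes in Control. The lengths in the table are 540 bases for Mt1, 554 for Mt2 and 5232 for Slc30a1. In Control, Mt1 is in rank 2 of the listed genes with 5784 ± 990.0 normalized counts per kb (SD, n = 3). Fxyd2, which encodes a regulatory subunit of the sodium pump and is in rank 1, has 8563 ± 3118, and its range over the libraries overlaps that of Mt1. Mt2 is in rank 7 with 1888 ± 175 normalized counts per kb. Its range overlaps that of Slco4a1 just above it and does not reach that of Ccl3 just below it. Slc30a1 is in rank 56 with 65.5 ± 3.48 normalized counts per kb and overlaps both neighbours, Blnk and Dusp2.

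In the G scaffold group the 2 metallothionein genes take the top ranks. Mt1 has 49274 ± 3642 and Mt2 has 29567 ± 2218 normalized counts per kb (SD, n = 3), and the ranges of the 2 genes do not overlap. Spp1, the osteopontin gene in rank 3, has 11004 ± 295 and stays below both in every library. Slc30a1 is in rank 54 with 140 ± 6.38 normalized counts per kb, between Sgk1 and Rgcc, and overlaps both. Its place among the listed genes is therefore nearly the same in both groups, while its level per kb is higher in the G scaffold group in the deposited scaling.

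The balance between the 2 metallothionein transcripts shifts toward Mt2. A ratio of 2 genes in the same library does not depend on the size factors. The ratio of Mt2 to Mt1 normalized counts is 0.360, 0.346 and 0.308 in the Control replicates. In the G scaffold replicates it is 0.618, 0.616 and 0.613. Mt2 thus makes up 23.6% to 26.4% of the summed counts of both genes in Control libraries and 38.1% ± 0.0857 in G scaffold libraries (SD, n = 3). On the log2 scale the change of the ratio is 0.87 with a 95% confidence interval from 0.38 to 1.36. The change of Mt2 differs from that of Mt1 in a limma fit of all other listed genes relative to Mt1 (adjusted p = 0.00550), as do the changes of 67.7% of the 344 genes in that fit. A two-sided exact permutation test over the 6 libraries gives p = 0.1, the smallest value that 3 against 3 libraries allow.

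The ratio of Mt2 to Mt1 is also tighter in the G scaffold group than the genes themselves. The coefficient of variation (SD over mean) of the 3 G scaffold libraries is 7.39% for Mt1 and 7.50% for Mt2, but 0.363% for their ratio. Counting error alone would give about 0.986% for this ratio, so the 3 ratios are indistinguishable at this depth. In Control the coefficient of variation is 17.1% for Mt1, 9.27% for Mt2 and 7.86% for the ratio, against 3.61% from counting error. In both groups the libraries have the same order for Mt1 and Mt2. Replicate 1 is the lowest and replicate 3 the highest in Control, while replicate 2 is the lowest and replicate 1 the highest in the G scaffold group.

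Slc30a1 has the same library order as the metallothioneins in Control but not in the G scaffold group, where replicate 1 is its lowest library and the highest one for both metallothioneins. Its coefficient of variation is 5.32% among Control libraries and 4.55% among G scaffold libraries. Counting error would give 5.42% and 3.66%, so the spread of Slc30a1 between libraries is about as large as counting alone makes it. The spread of Mt1 is larger than that: its chi-square over degrees of freedom, which counting alone puts near 1, is 93.8 among Control libraries and 148 among G scaffold libraries, against 0.982 and 1.53 for Slc30a1. This measure grows with the number of reads. By coefficient of variation, Mt1 is above the median of 7.77% over 78 genes with a mean of at least 100 reads in Control, and below the median of 8.42% over 109 such genes in the G scaffold group. There, 62 of the 109 vary more than Mt1 and 59 more than Mt2. With 3 libraries per group these are descriptions of the libraries.

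The metallothionein transcripts outgrow those of the exporter. The ratio of Mt1 to Slc30a1 normalized counts is 8.15, 8.74 and 10.3 in the Control replicates and 40.9, 32.3 and 35.8 in the G scaffold replicates. For Mt2 to Slc30a1 it is 2.93, 3.02 and 3.19 in Control and 25.2, 19.9 and 22.0 in the G scaffold group. The groups do not overlap in either ratio. The ratio of Mt1 to Slc30a1 rises 4.01-fold in the limma fit relative to Slc30a1 (95% confidence interval 1.58 to 2.43 on the log2 scale, adjusted p = 7.0e-05). The ratio of Mt2 to Slc30a1 rises 7.31-fold, a log2 change of 2.87 (2.48 to 3.26, adjusted p = 1.6e-05). In the fit relative to Slc30a1, 66.9% of the 344 other genes differ from it. The exact permutation tests give p = 0.1 for each of the 3 ratios, also after Benjamini-Hochberg adjustment over the 3.

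**Figure D4:**
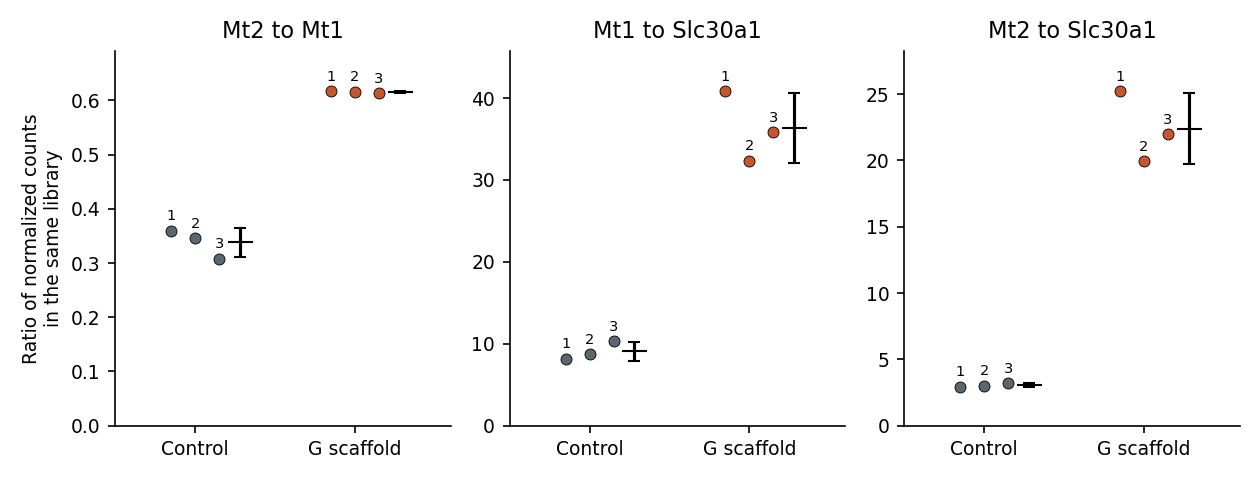
Ratios of normalized counts within each library (y axis, starting at 0) for Mt2 to Mt1, Mt1 to Slc30a1 and Mt2 to Slc30a1. Points are libraries labelled with their replicate number, and the bar beside them gives the mean with the SD. The G scaffold libraries lie above the Control libraries in all 3 panels, and their Mt2 to Mt1 ratios lie between 0.613 and 0.618.

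Levels and folds, unlike these ratios, depend on how the libraries are scaled. Mt1 and Mt2 hold 28.7% of the listed reads in G scaffold libraries and so enter any scaling to column totals. With column totals over all listed genes, the log2 fold changes of Mt1, Mt2 and Slc30a1 are 2.46, 3.32 and 0.45. When the 3 genes are left out of the totals they are 2.88, 3.75 and 0.88. With TMM factors computed on the listed genes they are 1.62, 2.49 and -0.38. TMM takes most genes as unchanged, which a table of called genes is not, and it moves the median log2 fold change of the listed genes by -1.39. Column totals take the sum over the listed genes as equal, although it is larger in every G scaffold library than in any Control library. They move the median by -0.60, and by -0.20 without the 3 genes. Mt1 and Mt2 stay called higher in each of these scalings. The call of Slc30a1 is lost in all 3, each of which lowers the median of the listed genes.

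Each of these 4 scalings multiplies all genes of a library by the same factor. Apart from the pseudocount, a change of scaling therefore moves each log2 fold change and the median of the listed genes alike. Distances from this median are nearly fixed by construction, so their stability is not a result about Mt1, Mt2 and Slc30a1. Mt1 lies 1.14 to 1.24 and Mt2 lies 2.01 to 2.10 above the median on the log2 scale, and Slc30a1 lies below it by values from -0.86 to -0.77. The positions of all 3 genes depend on the pseudocount, since many listed genes have low counts. With pseudocount 10, Mt1, Mt2 and Slc30a1 lie 2.05, 2.91 and 0.028 above the median. Among genes with at least 10 normalized counts in every library, the distances are 1.89, 2.76 and -0.11.

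**Figure D5:**
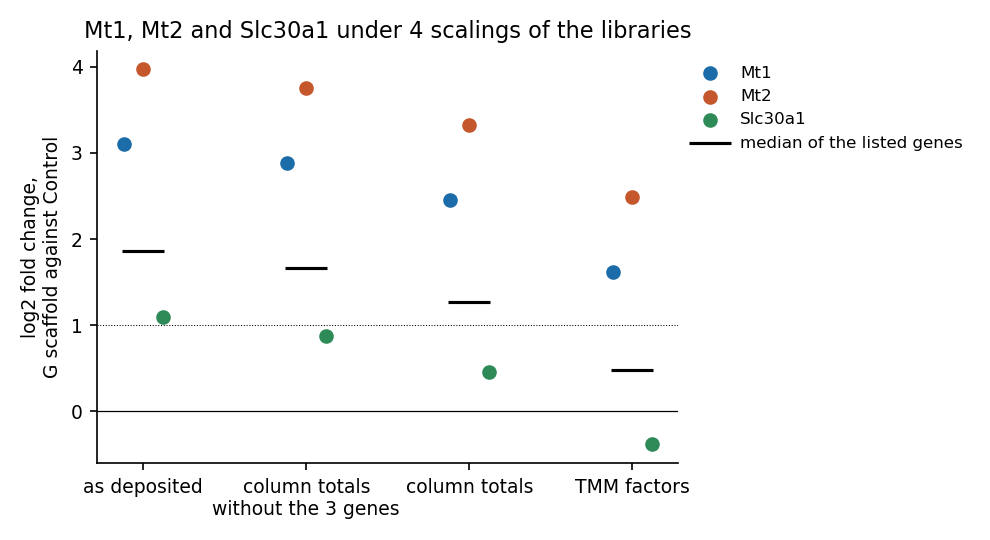
Log2 fold change in G scaffold against Control (y axis) of Mt1, Mt2 and Slc30a1 under the deposited size factors, column totals without the 3 genes, column totals, and TMM factors. Black bars give the median of the listed genes and the dotted line marks a log2 fold change of 1. Mt1 and Mt2 stay above 1 in each, and Slc30a1 goes from 1.10 to 0.88, 0.45 and -0.38.

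Most other genes of zinc handling are outside the table. A list of 29 genes holds 4 metallothioneins, MTF1, 10 members of the Slc30 family and 14 of the Slc39 family. The Slc30 family is classed here as zinc exporters and the Slc39 family as zinc importers, whatever else single members carry. Of these 29, Mt1, Mt2 and Slc30a1 are the 3 listed, and all 3 are called higher, as are 82.6% of all listed genes. The brain metallothionein Mt3, the epithelial Mt4, Mtf1, the other 9 Slc30 genes and all 14 Slc39 genes are not analysed here. Of a list of 12 genes of the response to metals and oxidants, 3 are listed and all 3 are called higher, a share to be read against the 82.6% of all listed genes. Hmox1, which encodes the heme-degrading enzyme heme oxygenase, has 1673 ± 81.4 normalized counts in Control and 4285 ± 153 in G scaffold libraries (SD, n = 3 in each group). Dnajb1, a co-chaperone of heat shock proteins, has 703 ± 40.3 and 1797 ± 89.5. Their log2 fold changes of 1.36 and 1.35 become -0.13 and -0.13 under TMM scaling, and 0.71 for each with column totals. Nqo1, a quinone reductase, has 0, 2 and 2 reads in the Control replicates and 9, 26 and 9 in the G scaffold replicates.

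The genes with the most similar profile differ for each of the 3. Likeness is the root mean square distance over the 6 libraries between log2 profiles, each less its own Control mean, and smaller is more alike. Among 108 candidates, named genes whose higher group mean reaches 100, Gadd45b, Dusp1 and Dusp5 lie closest to Mt1 at 0.146, 0.169 and 0.172. For Mt2 they are Ccl5, Plk2 and Rgcc, at 0.187, 0.203 and 0.272. Their Control means of 6.77, 23.5 and 5.74 normalized counts are far below the 1046 of Mt2, so these genes enter through the G scaffold group alone and their centring rests on few reads. Dusp5, with a Control mean of 40.1, also enters through the G scaffold group alone. For Slc30a1 they are Zfp36, Hist1h1c and Ecm1, at 0.0767, 0.0837 and 0.0905, and all 3 have Control means above 100. Mt1 is in rank 6 among the genes nearest to Mt2, and Mt2 in rank 12 among those nearest to Mt1, at a distance of 0.617. Mt1 and Mt2 are in ranks 66 and 92 for Slc30a1. With a single contrast, this distance includes the size of the change.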

How the data were processed

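RNA from 3 Control and 3 G scaffold samples of RAW264.7 cells was sequenced. The authors deposited one table with signal values, which are gene read counts divided by 1 size factor per library, for 345 genes past their own test. The paper names an online platform for the analysis, and the aligner and counter are not given in the sources used here. Their fold change and p-value columns and group means were not used. Samples were grouped by title. The members and gene lists were chosen with earlier results of these data known.

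Each gene was tested with limma 3.58.1 in R 4.3.3 on log2(value + 1) in a model of the group alone. The variance of each gene is drawn toward that of all genes in the fit. P-values were adjusted by Benjamini-Hochberg across the 345 genes. Calls needed an adjusted p no larger than 0.05 together with a log2 fold change of 1 or more in size. Fold changes on this scale understate the change of low genes. Ratios between members were tested by limma on each gene less the reference gene in the same library, where an adjusted p no larger than 0.05 counted as a difference whatever its size, and by an exact permutation test. The fits were tested on simulated data. TMM factors were computed with an own implementation over the listed genes. Named genes were the 3 members, the listed genes of the zinc, stress and marker lists, the 3 most similar profiles of each member, and its neighbours in level per kb. The lists are from general knowledge. Other values were computed in Python 3.11.15.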

Additional observations from a re-analysis of the deposited data

How the results depend on the processing

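Mt1 and Mt2 kept their direction and call in all 14 alternatives run for them. Among the alternatives, the replicate block and the filters on counts can change a p-value but not a gene's fold change or ratio. Without 1 library in turn, the log2 fold changes ranged from 2.98 to 3.23 for Mt1, from 3.90 to 4.03 for Mt2 and from 1.05 to 1.14 for Slc30a1. The changes of the log2 ratios ranged from 0.80 to 0.91 for Mt2 to Mt1, from 1.92 to 2.10 for Mt1 to Slc30a1 and from 2.78 to 2.95 for Mt2 to Slc30a1, and all 3 kept their direction and an adjusted p under 0.05 in each of 11 alternatives. The adjusted p of Mt2 to Mt1 ran from 2.1e-05 to 0.0295 over them. Slc30a1 kept its call in 11 alternatives. The call was lost with column totals (0.45), with column totals without the 3 genes (0.88) and with TMM factors (-0.38). All 3 are computed on the listed genes and lower their median log2 fold change.

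The counts of called genes were 285 higher and 55 lower. TMM factors gave 135 higher. Pseudocount 10 gave 194 higher and 38 lower. Of 161 genes with at least 10 normalized counts in every library, 115 were higher and 41 lower. Of 92 genes with a mean of at least 100, 68 were higher and 23 lower. A |log2 fold change| of 1.5 gave 24 lower. Higher calls made up 69.9% of calls with TMM factors, 76.7% with column totals and 83.8% as deposited. They made up 73.7% with at least 10 in every library and 74.7% with a mean of at least 100. Leaving out 1 library gave 276 to 283 higher and 50 to 53 lower.

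Same-numbered libraries do not deviate together (correlations -0.066, -0.054 and 0.054 over 92 genes), and 1 of the 3 Control libraries correlates best with its own number. With a replicate block, 284 genes were higher and 55 lower. In this balanced design the block cannot change the 3 log2 fold changes of 3.10, 3.97 and 1.10. It changed no call of the 3 genes, and the adjusted p of their 3 ratios stayed under 0.05. The planned count tests on recovered reads were not run. The low number of libraries limits the exact tests to p = 0.1.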

Other observations

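Slc40a1, which encodes the iron exporter ferroportin, was looked at after its values were seen because it is another metal exporter gene in the table. It has 50.7, 58.4 and 46.8 normalized counts in the Control replicates and 134, 143 and 145 in the G scaffold replicates. The groups do not overlap, as in 99.7% of the listed genes. The log2 fold change of Slc40a1 is 1.42 (limma, adjusted p = 1.4e-04 by Benjamini-Hochberg), and TMM factors turn it to -0.043. A larger log2 fold change is found in 63.8% of the listed genes, and 82.6% are called higher. Of 7 genes that mark osteoclast-like RAW264.7 cells, 4 are listed. Acp5, Ctsk and Atp6v0d2 are lower in the G scaffold group, with log2 fold changes of -1.87, -1.76 and -1.11, and Mmp9 has 1 to 4 reads in the Control libraries and 17 to 20 in the G scaffold libraries.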
